A study of Rattus norvegicus with 6 samples.

Results

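The genes described here encode the enzymes and carriers of mitochondrial and peroxisomal fatty acid oxidation, with those of ketone body formation. They were chosen by name as 38 genes of the pathway, by a rule that uses no measured value but with earlier results of these data known, and 36 of them were matched to the 16209 rows of the expression table. Acaa1a and Scp2 were not analysed here. The RNA came from liver tissue of fibrotic rats, with 3 libraries of the vehicle group and 3 of the group that received 10 mg/kg/day of ginkgetin, a biflavone of Ginkgo leaves. Both groups were fibrotic, so no healthy liver enters the comparison. The labels do not say whether each library came from a separate animal, and strain, age, sex and the way the fibrosis was induced are not given in the labels. The vehicle columns of the table are headed TAA, a term absent from the labels, and were taken as vehicle because the labels hold only that other group, so every direction given here rests on that assignment. The comparison asks how ginkgetin treatment changed the transcriptome of the fibrotic liver, and here how this pathway stood in it.

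Fatty acids are activated to acyl-CoA, carried into mitochondria as carnitine esters and shortened by repeated rounds of dehydrogenation, hydration, a further dehydrogenation and thiolysis. Peroxisomes run a parallel cycle for very long-chain, branched and dicarboxylic fatty acids and for the side chain of bile acid precursors, with oxidases in place of the dehydrogenases. In liver the acetyl-CoA made in mitochondria can be turned into ketone bodies for other organs. Many genes of the pathway are known targets of the nuclear receptor PPAR-alpha, and hepatocytes hold most of the pathway's activity in liver.

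Depth ran from 13372367 to 14933853 reads per library, and the pathway took between 0.534% and 1.47% of them. Vehicle replicate 3 stood apart. It was the lowest of all 6 libraries in 34 of the 36 genes, which held for 29% of all genes tested. The median SD of log2 values was 0.95 over the 36 genes with vehicle and 0.33 with ginkgetin, and it was larger with vehicle in 34 of 36. Over all genes tested the median SD was 0.51 with vehicle and 0.39 with ginkgetin, and it was larger with vehicle in 60.4%. Vehicle replicate 1 lay at the other end, within the range of the 3 ginkgetin libraries in 21 of 36 genes and above that range in 0. Of all genes tested, 50.3% had it within that range, and 3850 of 14639 had it above. Vehicle replicate 2 was below all 3 ginkgetin libraries in 33 genes (27.1% of all genes tested), vehicle replicate 3 in 35 (34.8%) and vehicle replicate 1 in 15 (23.4%).

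The mean of 35 of the 36 genes was higher in the ginkgetin libraries, against 48.6% of all genes tested, and no gene of the pathway passed the threshold. The median log2 fold change, which is the difference of mean log2(normalized reads + 1) between ginkgetin and vehicle, was 1.16 over the 36 genes and -0.02 over the 14639 genes tested. In limma, a linear model fitted across all genes, 0 of 36 had a Benjamini-Hochberg adjusted p under 0.05, where 0.0137% of all genes did, and the adjusted p of the 36 ran from 0.115 to 0.904. At an unadjusted limma p of 0.05, 13 of 36 were higher and 0 lower, where 7% of all genes were higher and 13.2% lower. All 3 ginkgetin values lay above all 3 vehicle values in 14 of 36 genes, where 11.4% of all genes showed this. On whole reads, edgeR's quasi-likelihood test called 0 of 35 genes of the pathway (its filter left out Echs1) and had 8 at an unadjusted p of 0.05 (5.57% of all genes were higher at that p), and DESeq2 called 2, Cpt2 and Pex11a, where it called 1.83% of all genes higher. These tissues are bulk samples, in which fewer cells of a type and less RNA per cell cannot be told apart.

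Results without 1 vehicle library differed widely. Without vehicle replicate 3, 35 of 36 genes had a higher mean with ginkgetin (49.5% of all genes), the median log2 fold change was 0.65, 10 genes were higher at an unadjusted limma p of 0.05 (5.75% of all genes) and 0 passed the adjusted threshold, while 0.781% of all genes did. Without vehicle replicate 1, the median was 1.59, 33 genes were higher and Acot1 lower at that p (higher in 11.9% of all genes) and 8 passed the adjusted threshold, where 1.94% of all genes passed as higher. The 8 were Cpt2, Decr1, Ehhadh, Crot, Acot4, Pex11a, Acsl1 and Crat. Genes without overlap numbered 14 without vehicle replicate 3 (14.8% of all genes) and 33 higher without vehicle replicate 1 (20.7% of all genes).

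**Figure D1:**
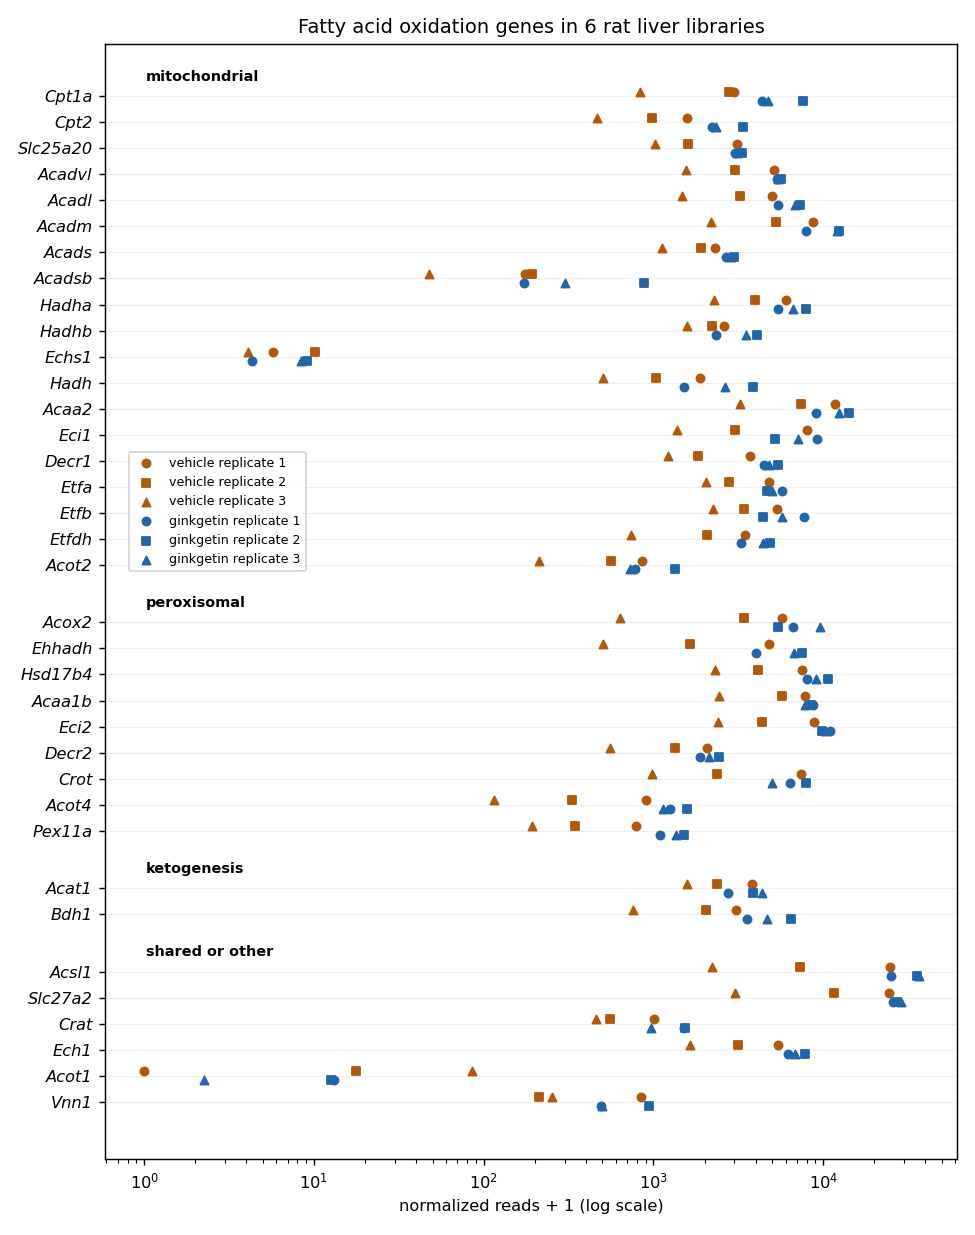
Normalized reads + 1 on a log axis for the 36 fatty acid oxidation genes, 1 row per gene and 1 point per library, with vehicle in brown and ginkgetin in blue and the replicate given by the symbol. Vehicle replicate 3 (brown triangles) is the lowest point in 34 of 36 rows, and the ginkgetin points sit closer together than the vehicle points in 34 of 36. Of all genes tested, 29% and 60.4% showed this.

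The label of the tissue was checked against markers of its cell types, whose levels differed between libraries as well. All 12 hepatocyte markers (Alb, Ttr, Apoa1, Apob, Apoh, Serpina1, Tf, Fgb, Asgr1, Cps1, Hnf4a and F2) were detected in every library, and all 12 had a higher mean under ginkgetin, with a median log2 difference of 1.18, and 0.43 without vehicle replicate 3, with 11 of 12 higher. Their summed level ran from 488304 to 2494172 normalized reads with vehicle and from 2061272 to 3206897 with ginkgetin. The median SD of their log2 values was 1.23 with vehicle and 0.25 with ginkgetin, and the SD was larger with vehicle in 12 of 12. The median level of these markers, in log2 units centred per gene over the 6 libraries, was 0.38, -0.04 and -2.02 across vehicle replicates 1 to 3, against 0.34, 0.71 and 0.68 across ginkgetin replicates 1 to 3. The 36 oxidation genes stood at 0.30, -0.45 and -1.50, against 0.42, 0.76 and 0.56. Vehicle replicate 3 was the lowest library on both measures, lower for the hepatocyte markers than for the oxidation genes, whereas vehicle replicate 2 was lower for the oxidation genes. Matrix and fibroblast markers went the other way, with 9 of 9 lower means, a median of -2.36 (-1.29 and 6 of 9 lower without vehicle replicate 3), and a summed level of 14266 to 147279 normalized reads with vehicle and 4218 to 7709 with ginkgetin, the vehicle maximum again in replicate 3. The part of these marker differences in the results for oxidation genes was not tested.

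**Figure D2:**
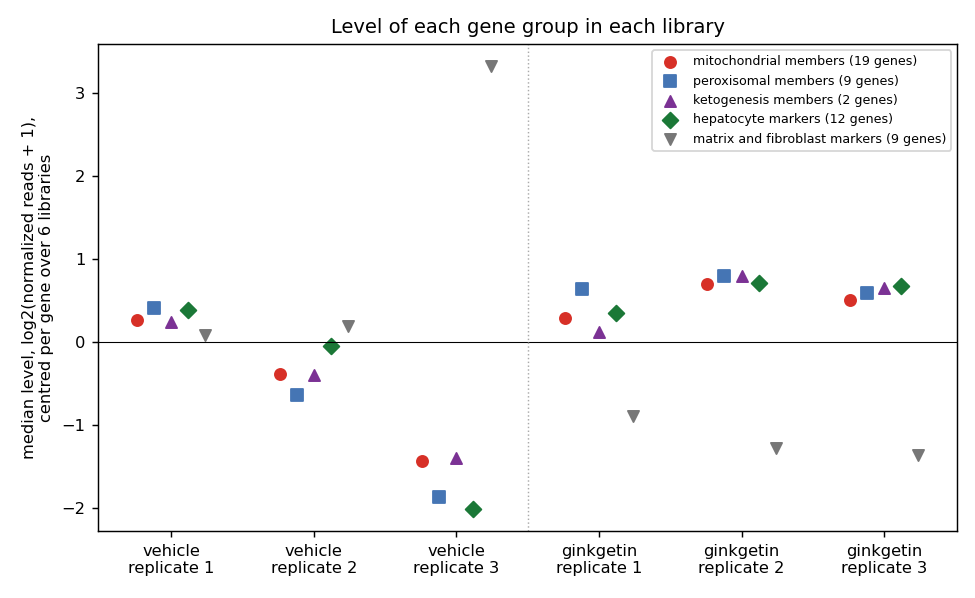
Median level of each gene group in each of the 6 libraries, in log2(normalized reads + 1) centred per gene over the libraries; the dotted line parts vehicle from ginkgetin. In vehicle replicate 3 the mitochondrial (-1.43), peroxisomal (-1.87) and ketogenesis (-1.40) genes and the hepatocyte markers (-2.02) lie lowest, and matrix markers (3.32) lie highest.

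The proximal promoters of the genes were read for shared letters, as a description. Most of the genes stood lowest in vehicle replicate 3, but so did 12 of 12 hepatocyte markers. A link between promoters and levels was not tested. RefSeq entries of the GRCr8 build, which is not the build named for the reads, were found for 33 of the 38 genes, Acaa1a and Scp2 among them, and the 250 bases before the start were searched on both strands. The response element of PPAR-alpha is a direct repeat of AGGTCA with a single base between, written AGGTCANAGGTCA. This exact repeat was in 0 of 33 promoters and in 0.0508% of all 33469 promoters of the same length. With up to 1 letter different it was in 2 of 33 (Acot4 and Acadvl), against 0.368% of all promoters and 0.413% of those of 10883 genes tested here. The half-site AGGTCA alone was in 6 of 33, against 14.1% of all promoters and 10.9% of those of genes tested. The GC box GGGCGG, the site of Sp1-type factors, was in 22 of 33, against 30.5% of all promoters and 55.8% of those of genes tested, and the TATA box TATAAA was in 1 (Echs1), against 12.9% of all promoters and 7.2% of those of genes tested. The CCAAT box CCAAT was in 14, against 34.0% and 35.4%. A match is only a description of these letters, and an absent match says nothing of sites elsewhere in the gene. The promoters of the peroxisomal genes Pex11a, which had the smallest p of the pathway, and Acot4, and of the mitochondrial gene Acadvl are shown, 5′ to 3′ on the gene's strand, ending at the base before the start. Capitals mark the GC box in Pex11a and the imperfect direct repeat in Acot4 (read on the opposite strand) and in Acadvl, each of which holds a half-site counted above.
Pex11a, chr1:143096492-143096741, minus strand, GRCr8: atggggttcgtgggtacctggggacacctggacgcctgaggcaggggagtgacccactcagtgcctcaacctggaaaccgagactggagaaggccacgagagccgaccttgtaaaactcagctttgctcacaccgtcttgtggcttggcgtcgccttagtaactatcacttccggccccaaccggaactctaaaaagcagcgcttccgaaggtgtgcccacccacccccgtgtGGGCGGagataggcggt
Acot4, chr6:109399604-109399853, plus strand, GRCr8: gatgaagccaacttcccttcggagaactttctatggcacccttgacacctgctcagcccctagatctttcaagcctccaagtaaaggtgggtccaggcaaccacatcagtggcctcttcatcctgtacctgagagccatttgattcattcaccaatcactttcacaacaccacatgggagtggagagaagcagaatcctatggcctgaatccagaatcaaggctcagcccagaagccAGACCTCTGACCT
Acadvl, chr10:55236706-55236955, minus strand, GRCr8: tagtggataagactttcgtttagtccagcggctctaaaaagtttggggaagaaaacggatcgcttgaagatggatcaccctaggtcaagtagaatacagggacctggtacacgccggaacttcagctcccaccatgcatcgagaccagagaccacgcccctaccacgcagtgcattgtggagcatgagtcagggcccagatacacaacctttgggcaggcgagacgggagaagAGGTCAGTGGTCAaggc

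All 19 mitochondrial genes had a higher mean under ginkgetin, with a median log2 difference of 0.97. Of them 6 had an unadjusted limma p under 0.05, where 7% of all genes were higher at that p. The adjusted threshold was passed by 0, where 0.0137% of all genes passed. The entry step is set out first. Cpt1a encodes carnitine palmitoyltransferase 1, the rate-controlling enzyme that makes acylcarnitine on the outer membrane. It stood at 2994, 2802 and 835 normalized reads under vehicle against 4383, 7648 and 4726 under ginkgetin, where values here and throughout are in the order of replicates 1 to 3. Every ginkgetin library was above every vehicle library, with vehicle replicate 3 far below the other vehicle libraries. The log2 fold change was 1.50 (SE 0.543, limma adjusted p = 0.188), with 0.90 left without vehicle replicate 3. Cpt2, which remakes acyl-CoA inside the mitochondrion, had 1574, 979 and 464 normalized reads under vehicle against 2201, 3383 and 2338 under ginkgetin. The groups again did not overlap, at 1006 ± 556 (SD, n = 3) under vehicle against 2641 ± 646 (SD, n = 3) under ginkgetin. Its log2 fold change was 1.53 (SE 0.45, limma adjusted p = 0.139), all 3 ginkgetin libraries being higher, and 1.06 without vehicle replicate 3. DESeq2 gave Cpt2 an adjusted p of 0.0414, and over all alternatives its adjusted p ran from 0.0395 to 0.363. Slc25a20, the carrier that exchanges acylcarnitine for carnitine between these enzymes, had overlapping groups. It had 3119, 1593 and 1017 normalized reads under vehicle against 3006, 3329 and 3094 under ginkgetin, so that vehicle replicate 1 lay inside the ginkgetin range (log2 fold change 0.87, SE 0.425, limma adjusted p = 0.284).

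Acyl-CoA dehydrogenases open each round and are divided by chain length. Acadvl, for very long chains, had 5146, 3025 and 1557 normalized reads under vehicle against 5367, 5616 and 5396 under ginkgetin. The ginkgetin libraries lay close together and vehicle replicate 1 was just below them, so the groups did not overlap, although the log2 fold change of 0.92 (SE 0.471) did not pass (limma adjusted p = 0.306). Acadl, for long chains, had 4989, 3221 and 1476 under vehicle against 5450, 7258 and 6860 under ginkgetin, again without overlap (log2 fold change 1.17, SE 0.492, limma adjusted p = 0.234). Acadm, for medium chains, had 8757, 5243 and 2172 under vehicle against 7874, 12455 and 12017 under ginkgetin. Here ginkgetin replicate 1 was below vehicle replicate 1, and the log2 fold change was 1.19 (SE 0.575). Acads, for short chains, had 2309, 1917 and 1122 under vehicle against 2664, 2992 and 2850, with no overlap and a log2 fold change of 0.73 (SE 0.343). Acadsb, which acts mainly on branched short chains from isoleucine, had 175, 192 and 46.8 under vehicle against 172, 884 and 302. Its mean with ginkgetin rested on replicate 2, and ginkgetin replicate 1 was near vehicle replicates 1 and 2 (log2 fold change 1.61, SE 0.7, limma adjusted p = 0.247). None of these 5 genes passed the adjusted threshold in limma. Without vehicle replicate 3 their log2 fold changes were 0.47 for Acadvl, 0.69 for Acadl, 0.64 for Acadm, 0.43 for Acads and 0.96 for Acadsb.

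The later steps of the mitochondrial spiral showed overlapping groups in all 5 genes. Hadha and Hadhb encode the subunits of the trifunctional protein, which carries out the last steps for long chains. Hadha had 6011, 3965 and 2263 normalized reads under vehicle against 5427, 7922 and 6655 under ginkgetin, and Hadhb 2593, 2202 and 1566 under vehicle against 2331, 4063 and 3493. Ginkgetin replicate 1 was below vehicle replicate 1 for both subunits, and their log2 fold changes were 0.80 (SE 0.456) and 0.63 (SE 0.356). Hadh, the dehydrogenase for shorter chains, had 1886, 1030 and 502 under vehicle against 1519, 3878 and 2636 under ginkgetin. It was the gene of this step with an unadjusted limma p under 0.05 (limma adjusted p = 0.218, log2 fold change 1.33, SE 0.531), but vehicle replicate 1 was above ginkgetin replicate 1. Acaa2, the mitochondrial thiolase, had 11718, 7428 and 3250 under vehicle against 9061, 14233 and 12420, at a log2 fold change of 0.83 (SE 0.566), which was 0.33 without vehicle replicate 3. Echs1, the short-chain hydratase, was covered by only 3.07 to 9.15 normalized reads in any library, with a log2 fold change of 0.16 (SE 0.661) whose sign turned to -0.14 without vehicle replicate 3. At that depth a difference in Echs1 was not detectable.

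Auxiliary enzymes handle unsaturated fatty acids, and the electron transfer flavoprotein passes the electrons of the dehydrogenases to the respiratory chain. Decr1, the mitochondrial dienoyl-CoA reductase, had 3721, 1832 and 1213 normalized reads under vehicle against 4464, 5388 and 4822 under ginkgetin. The groups did not overlap, and the log2 fold change was 1.27 (SE 0.446, limma adjusted p = 0.18), with 0.90 left without vehicle replicate 3. Eci1, the mitochondrial enoyl-CoA isomerase, had 8043, 3010 and 1379 under vehicle against 9186, 5206 and 7087, so vehicle replicate 1 was above ginkgetin replicates 2 and 3 (log2 fold change 1.11, SE 0.636). Etfa and Etfb, the flavoprotein's subunits, and Etfdh, its dehydrogenase, had log2 fold changes of 0.77, 0.75 and 1.24, with overlap between groups in each. Etfb reached 7660 normalized reads in ginkgetin replicate 1 and 4413 in ginkgetin replicate 2, below the 5364 of vehicle replicate 1. Acot2, a mitochondrial thioesterase that releases free fatty acid from acyl-CoA, had 851, 563 and 210 under vehicle against 777, 1339 and 727 under ginkgetin (log2 fold change 0.97, SE 0.501). Acot1, Acot2 and Acot4 are closely related in sequence, so their reads may be shared in a way that cannot be seen in the table.

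All 9 peroxisomal genes measured had a higher mean under ginkgetin, with a median log2 difference of 1.29. Of them 3 had an unadjusted limma p under 0.05, where 7% of all genes were higher at that p. The groups did not overlap in 4 (11.4% of all genes were higher without overlap). The adjusted threshold was passed by 0 (0.0137% of all genes). The smallest p of the whole pathway belonged to Pex11a, which encodes a peroxisomal membrane protein of organelle division and is a classical PPAR-alpha target. Pex11a stood at 787, 346 and 190 normalized reads under vehicle against 1088, 1517 and 1358 under ginkgetin. All 3 ginkgetin values were above all 3 vehicle values, at 441 ± 309 (SD, n = 3) under vehicle against 1321 ± 217 (SD, n = 3) under ginkgetin. The log2 fold change was 1.81 (SE 0.469, limma adjusted p = 0.115), with 1.33 left without vehicle replicate 3. DESeq2 gave it an adjusted p of 0.0327, within a range of 0.0189 to 0.334 over all alternatives. Acot4, a peroxisomal thioesterase of dicarboxylic acyl-CoA, stood at 898, 330 and 115 under vehicle against 1252, 1575 and 1133 under ginkgetin. Its groups did not overlap either, and its log2 fold change of 2.01 (SE 0.637, limma adjusted p = 0.158) was the largest of the peroxisomal genes, with 1.26 without vehicle replicate 3.

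Ehhadh encodes the bifunctional enzyme that hydrates and dehydrogenates straight-chain substrates. It had 4820, 1636 and 501 normalized reads under vehicle against 4016, 7460 and 6706 under ginkgetin. Vehicle replicate 1 held 9.61 times the level of vehicle replicate 3 and lay above ginkgetin replicate 1 (log2 fold change 1.89, SE 0.748, limma adjusted p = 0.216; 1.06 without vehicle replicate 3). Acox2, the oxidase of branched chains and bile acid precursors, had 5731, 3430 and 635 under vehicle against 6668, 5403 and 9530. Vehicle replicate 1 was again inside the ginkgetin range, and the log2 fold change of 1.59 (SE 0.762) was 0.66 without vehicle replicate 3. Hsd17b4, a bifunctional enzyme that serves branched chains, had 7472, 4122 and 2306 under vehicle against 7972, 10707 and 9061 under ginkgetin, without overlap (log2 fold change 1.15, SE 0.504). Acaa1b, a peroxisomal thiolase nearly identical to Acaa1a, had 7853, 5724 and 2430 under vehicle against 8661, 8470 and 7768, the smallest difference among the peroxisomal genes (0.79, SE 0.507), and its reads may be shared with that copy. Eci2, an enoyl-CoA isomerase, had 8817, 4372 and 2399 under vehicle against 10931, 9876 and 10245, without overlap (log2 fold change 1.19, SE 0.532). Decr2, the peroxisomal dienoyl-CoA reductase, and Crot, which makes carnitine esters for export from peroxisomes, overlapped between groups, at log2 fold changes of 0.88 and 1.29. Crot had 7402, 2359 and 980 under vehicle against 6410, 7879 and 4972 under ginkgetin, so vehicle replicate 1 exceeded ginkgetin replicates 1 and 3.

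Set side by side, the mitochondrial and peroxisomal genes followed the same libraries. The median level of mitochondrial genes was 0.27, -0.39 and -1.43 across vehicle replicates 1 to 3, against 0.29, 0.70 and 0.50 across ginkgetin replicates 1 to 3, in centred log2 units. That of peroxisomal genes was 0.40, -0.65 and -1.87, against 0.64, 0.80 and 0.58, so it lay further from 0 in 6 of 6 libraries. The medians of the log2 fold changes were 0.97 and 1.29 over all libraries, 0.49 and 0.73 without vehicle replicate 3, and 1.40 and 2.05 without vehicle replicate 1. The difference between the compartments was not tested. Their ranges overlapped, from 0.16 to 1.61 for mitochondrial and from 0.79 to 2.01 for peroxisomal genes.

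The chosen genes held a pair of ketone body enzymes, both with a higher mean under ginkgetin and 1 of them without overlap. Of all genes, 11.4% were higher without overlap. Bdh1, which reduces acetoacetate to beta-hydroxybutyrate, had 3054, 2027 and 754 normalized reads under vehicle against 3537, 6439 and 4674 under ginkgetin. All 3 ginkgetin libraries were above the vehicle libraries, and the log2 fold change was 1.50 (SE 0.536, limma adjusted p = 0.184), or 0.93 without vehicle replicate 3. Acat1, the mitochondrial acetoacetyl-CoA thiolase, had 3800, 2357 and 1566 under vehicle against 2761, 3859 and 4342. Vehicle replicate 1 was above ginkgetin replicate 1, and the log2 fold change was 0.57 (SE 0.41). Outside the chosen genes, 3 of 7 further ketone body genes had a lower mean under ginkgetin and 4 a higher one. The 3 lower ones follow. Hmgcll1, a lyase outside mitochondria, had 14.2, 14.1 and 36.2 under vehicle against 3.32, 3.47 and 2.47 under ginkgetin (-2.33, SE 0.617), and Slc16a6, a ketone body transporter, 103, 141 and 58.3 under vehicle against 25.4, 40.5 and 44.5 (-1.38, SE 0.449). Oxct1, the enzyme of ketone body use that hepatocytes largely lack, had 40.3, 86.5 and 578 under vehicle against 66.3, 23.1 and 18.6, the high value being that of vehicle replicate 3. None of these passed in limma.

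Of the 6 genes of activation or of shared or other place, 5 had a higher mean under ginkgetin (48.6% of all genes). The groups did not overlap in 3 (11.4% of all genes were higher without overlap). Acsl1, the main long-chain acyl-CoA synthetase of liver, had 24619, 7250 and 2197 normalized reads under vehicle against 25074, 35444 and 36525 under ginkgetin. It had the largest log2 fold change of the 36 genes (2.12, SE 0.852, limma adjusted p = 0.22), but vehicle replicate 1 held 11.2 times the level of vehicle replicate 3 and nearly reached ginkgetin replicate 1. The log2 fold change was 1.26 without vehicle replicate 3. Slc27a2, a very long-chain acyl-CoA synthetase and transporter, had 24460, 11548 and 3032 under vehicle against 25709, 27235 and 28873, likewise without overlap and with vehicle replicate 1 close to the ginkgetin libraries (1.52, SE 0.775). Crat, the short-chain carnitine acetyltransferase of mitochondria and peroxisomes, had 1005, 557 and 455 under vehicle against 1514, 1542 and 965 under ginkgetin. Its overlap was slight, as ginkgetin replicate 3 lay just below vehicle replicate 1, and its log2 fold change of 1.05 had an SE of 0.352 (limma adjusted p = 0.171). Ech1, a dienoyl-CoA isomerase found in both organelles, had 5395, 3163 and 1632 under vehicle against 6242, 7851 and 6799, without overlap (1.19, SE 0.485). Vnn1, a pantetheinase and PPAR-alpha target that returns a building block of CoA, had 843, 210 and 251 under vehicle against 493, 937 and 500, with overlap (0.79, SE 0.524). Acot1, a cytosolic thioesterase, was the single gene with a lower mean with ginkgetin. It had 0, 16.6 and 84.1 under vehicle against 12.2, 11.6 and 1.24 under ginkgetin, so most of its reads came from vehicle replicate 3, and its log2 fold change of -0.67 (SE 1.54) turned to 0.77 without that library.

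**Figure D3:**
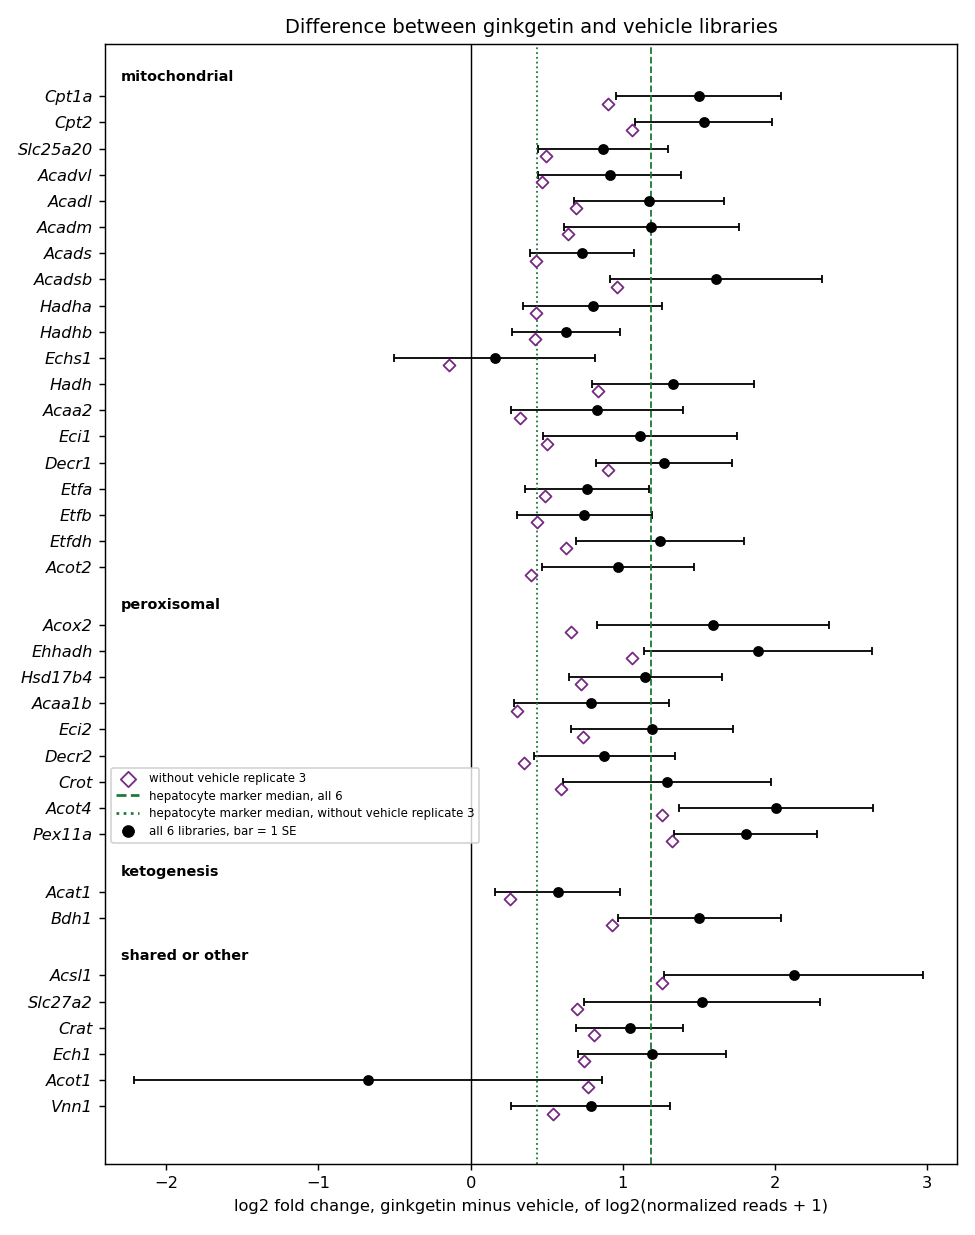
Log2 fold change, ginkgetin minus vehicle, of the 36 genes by compartment; black points are the limma fit on 6 libraries with bars of 1 SE, open diamonds the fit without vehicle replicate 3, and green lines the hepatocyte marker medians (1.18 dashed, 0.43 dotted without that library). The black points of 35 genes lie above 0, Acot1 lies below, and each diamond except that of Acot1 lies to the left of its black point.

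Of 52 other genes of the pathway, listed by function, 42 had a higher mean under ginkgetin and 10 a lower one. Of 14 further genes of mitochondrial oxidation and activation 12 had higher means (median log2 fold change 0.57). An unadjusted limma p under 0.05 was reached by 2 of them, where 7% of all genes were higher at that p. These were Acad11 (1.58, SE 0.529) and Acad10 (1.29, SE 0.46), both acyl-CoA dehydrogenase family members, and next by p came Pccb (0.89), a subunit of propionyl-CoA carboxylase, and Acsl4 (0.94), an acyl-CoA synthetase. Of 18 further peroxisomal genes 17 had higher means (median 1.12), 5 of them at that p. Acox3, an oxidase of branched chains, had 940, 881 and 347 normalized reads under vehicle against 2041, 3502 and 2223 under ginkgetin, and a log2 fold change of 1.93 (SE 0.43, limma adjusted p = 0.0953), or 1.47 without vehicle replicate 3. Every ginkgetin library exceeded the highest vehicle library. Next by p came Hacl1 (2.71, SE 0.844), the lyase of alpha-oxidation, Pex5 (1.53, SE 0.49), the import receptor of peroxisomes, and Amacr (2.11, SE 0.709), the racemase of branched chains. In Hacl1 and Amacr the groups overlapped, with vehicle replicate 1 above ginkgetin replicate 1. Pex5 had no overlap, at only 15 to 62 reads in the lowest and highest library. Of 7 further ketone body genes 4 had higher and 3 lower means. No gene of these lists passed the adjusted threshold in limma. At the unadjusted p 13 of 52 were higher (7% of all genes) and 2 lower (13.2% of all genes), both ketone body genes, Hmgcll1 and Slc16a6. Without vehicle replicate 1, 6 of the 52 passed in limma, where 5.26% of all genes did. Of these Acad10, Acox3, Amacr, Hacl1 and the regulator Rxra were higher under ginkgetin and Abcd2, a peroxisomal fatty acid transporter named after its values were seen, was lower. DESeq2 called 9 of the 52, where it called 9.28% of all genes. These were Acox3, Hacl1, Pex5, Dbi, Rxra and Lpin1 as higher and Hmgcll1, Oxct1 and Slc16a6 as lower. Without vehicle replicate 3 limma called 0 of the 52 (0.781% of all genes), with 10 higher at an unadjusted p of 0.05 (5.75% of all genes). With all libraries edgeR called 0, as it did over all genes.

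Among 13 genes of uptake and regulation 9 had higher means, 5 of them at an unadjusted limma p under 0.05 (7% of all genes). Rxra encodes the retinoid X receptor that pairs with PPAR-alpha on DNA. It had 304, 295 and 257 normalized reads under vehicle against 734, 1926 and 784 under ginkgetin. The vehicle libraries were close together and all below the ginkgetin libraries, and the log2 fold change was 1.86 (SE 0.37, limma adjusted p = 0.0886), nearly the same without vehicle replicate 3 (1.79). Its adjusted p ran from 0.000511 (DESeq2) to 0.274 over all alternatives. Ppara itself had 206, 218 and 31.3 under vehicle against 202, 523 and 292, with overlap and a log2 fold change of 1.47 (SE 0.729), or 0.56 without vehicle replicate 3. Its coactivator gene Ppargc1a had 13, 43.2 and 10.4 under vehicle against 24.3, 25.5 and 9.9, a log2 fold change of 0.01 (SE 0.688) with no stable sign. Lpin1 (2.26, SE 0.745), which encodes a phosphatidate phosphatase and coregulator, Sirt3 (0.90, SE 0.273), a mitochondrial deacetylase of oxidation enzymes, and Dbi (1.01, SE 0.345), the acyl-CoA binding protein, each had ginkgetin values above all vehicle values. None of the 13 passed in limma.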

How the data were processed

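RNA of 6 rat liver samples was sequenced from SMARTER mRNA libraries, per the labels' protocols. The deposited values are a signal, normalized reads per gene that the authors made by a step no header names. The submitters' processing notes name mRatBN7.2 as build; aligner, counter, annotation and strandedness were not given in the sources used here. Overlapping or near-identical genes may therefore share reads. Of the values, 99.7% were whole multiples of 1 library-specific unit within 0.02. The other 53 rows, 7 of them genes described here, carry an offset of under 1 read. Reads recovered in this way went to edgeR 4.0.16 and DESeq2 1.42.0 as alternatives, since the values are not raw counts.

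Groups were compared with limma 3.58.1 (R 4.3.3; trend, robust) on log2(value + 1) for the 14639 genes reaching 1 in at least 3 libraries, with Benjamini-Hochberg adjustment over all of them at 0.05. All 36 genes passed that filter. The offset of 1 understates changes of low genes. The procedure was tested on simulated reads, drawn with the same dispersion for every gene. It recovered 4 of 50 genes with a simulated log2 fold change of 1, 55 of 100 at 2 in either direction and 50 of 50 at 3. There were 6 false calls. No simulated library stood apart as vehicle replicate 3 did, so recovery may be lower for the pathway's genes. Failing the threshold therefore says little about changes near 1. Groups and replicate numbers come from the labels. These do not say that replicates are separate animals, so p-values reflect only how these samples vary, which may be technical. No 2 libraries were duplicates (lowest chi-square per degree of freedom 49.9). Members, lists and tests were chosen with earlier results of these data known. Named genes were all members and, of each list of other pathway genes, the 4 with the smallest p plus a few fixed by name, Ppara and Ppargc1a among them; some of these genes are not reported here. Promoters are RefSeq's, 250 bases before each start. Alternatives were other pseudocounts, filters, scalings and tests, a replicate block, and each library left out.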

Additional observations from a re-analysis of the deposited data

How the results depend on the processing

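The higher direction of the pathway held in each setting run: the median log2 fold change of the genes was between 0.64 and 1.59. Equal library totals moved the median of all genes to -0.53, and the pathway's median was then 0.64; quantile scaling gave 0.73. The number of pathway genes past the adjusted threshold, 0 in limma, was 2 with DESeq2, and with each library left out in turn ran from 0 to 8. At an unadjusted p of 0.05 the number, 13 in limma, was 4 with quantile scaling (17.2% of all genes, either direction), 7 with equal library totals (22.4%), 8 with edgeR (19.8%) and from 3 to 34 with a library left out. It was 34 without vehicle replicate 1 (28.1% of all genes), 6 without vehicle replicate 2 (15.1%), and 8, 3 and 5 without ginkgetin replicates 1, 2 and 3 (19.3%, 13.1% and 11.9%). Those shares join higher and lower genes. Higher alone were 1117 of 14639 genes with quantile scaling, 348 of 14639 with equal library totals and 693 of 12443 with edgeR. That number was 1709 of 14328 without vehicle replicate 1 and 725 of 14317 without vehicle replicate 2. Without ginkgetin replicates 1, 2 and 3 it was 874 of 14417, 542 of 14407 and 466 of 14431. The pathway's count was also 10 without vehicle replicate 3 and 15 with DESeq2 (15.4% and 20.2% of all genes, either direction). The 14 genes without overlap (27.4% of all genes, either direction) became 10 with quantile scaling (25.1%) and 11 with equal library totals (28.6%). They became 14 to 34 with a library left out, with 34 without vehicle replicate 1 (45.8% of all genes, either direction) and 24 without ginkgetin replicate 1 (45.2%). Groups with fewer libraries also overlap less easily. Leaving out a library gave medians of 0.65 to 1.59 for all genes, 0.49 to 1.40 for mitochondrial, 0.73 to 2.05 for peroxisomal and 0.60 to 1.42 for ketogenesis genes. With a replicate block 0 genes of the pathway passed and 9 had an unadjusted p under 0.05 (16.3% of all genes, either direction). Same-numbered libraries had correlations of deviations from the group mean of -0.16, 0.03 and -0.21, and 0 of 3 vehicle libraries correlated best with their own number, so the numbers were not used as pairs. Signs turned for Echs1 (-0.27 with equal totals, -0.14 to 0.52 with a library left out), Acot1 (-2.43 to 0.77 with a library left out) and Ppargc1a (-0.005 with a pseudocount of 5, -0.48 with equal totals, -0.18 with edgeR, -0.16 with DESeq2, -0.36 to 0.61 with a library left out). Rounding the rows with an offset, chosen after seeing the data, changed no count. The cause of these shifts was not tested. The lowest and highest library held 3 and 11 reads of Echs1, 0 and 137 of Acot1 and 8 and 52 of Ppargc1a.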

Other observations

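Marker lists of other cells gave these values beside the pathway. All 7 bile duct markers had lower means with ginkgetin (median log2 fold change -3.21, and -3.01 without vehicle replicate 3), and their summed level ran from 1949 to 20596 normalized reads with vehicle and from 313 to 771 with ginkgetin. The vehicle maximum was in replicate 3, where Spp1 alone held 18034. Macrophage markers were mixed, with 4 of 7 higher and 3 lower. Marco (2.63) and the Kupffer cell lectin Clec4f (1.97) were higher at an unadjusted limma p under 0.05, with overlap between groups in both. Cd163 (0.42) and Cd14 (0.37) were higher as well, and Cd68 (-1.24), Csf1r (-0.96) and Adgre1 (-0.95) were lower. The summed level of the macrophage list was 2591 to 7918 with vehicle and 4619 to 7462 with ginkgetin. Of the adipocyte markers 3 were tested, Cfd, Cidec and Lpl, which liver cells can also express, while Adipoq stayed at or below 2.31 normalized reads. The summed level of the adipocyte list ran from 2807 to 9134 with vehicle, the maximum being in replicate 3, and from 1834 to 2459 with ginkgetin. Lpl, a lipoprotein lipase, had no overlap between groups, at 1383, 3212 and 7579 normalized reads under vehicle against 903, 541 and 250 under ginkgetin. Its log2 fold change of -2.70 (SE 0.663) did not pass in limma (adjusted p = 0.109) and was -2.08 without vehicle replicate 3. Skeletal and heart muscle markers summed to 24 to 497 normalized reads with vehicle and to 4 to 38 with ginkgetin. The maximum was in vehicle replicate 3, where Tnnt2 alone held 412. Ckm was at 0 in 5 of 6 libraries.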
